A study of Mus musculus with 12 samples.

Results

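Leukocyte integrins are the surface receptors with which white blood cells hold on to other cells and to matrix. Each receptor is a pair of 1 α and 1 β chain. The genes described here code for 6 α chains (Itgal, Itgam, Itgax, Itga4, Itga6 and Itgav) and 3 β chains (Itgb2, Itgb1 and Itgb7). They were chosen by symbol, and all 9 were found among the 49315 genes of the count table and passed the filter on low counts in every comparison.

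RNA was sequenced from T cells that were taken out of mouse spleens by magnetic negative selection, a method that removes other cells and leaves T cells untouched. The donors were 12-week-old male mice of a mixed S129/C57 background, either wild-type littermates (WT, miR-214+/+) or homozygous for a deletion of miR-214 in the whole body (miR-214-/-). Each genotype received sham buffer or angiotensin II (Ang II) for 14 days from an osmotic minipump, at 490 ng/kg each day. The 4 groups had 3 mice each and 1 library per mouse, so each of the 12 libraries stands for 1 animal and for all T cells of its spleen together.

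As background, the β2 chain (Itgb2) pairs with αL (Itgal) to form LFA-1, the main adhesion receptor of T cells, which binds ICAM proteins on endothelium and on antigen-presenting cells. With αM (Itgam, CD11b) and αX (Itgax, CD11c) it forms receptors typical of neutrophils, monocytes, macrophages, NK cells and dendritic cells. The α4 chain (Itga4) pairs with β1 (Itgb1) to form VLA-4, which binds VCAM-1 and fibronectin, and with β7 (Itgb7) to form the gut-homing receptor that binds MAdCAM-1. The α6 chain (Itga6) joins β1 in a laminin receptor that naive T cells carry, and αV (Itgav) serves in receptors that bind vitronectin and activate latent TGF-β. Adhesion is set largely by a switch of the receptor between closed and open shapes on the surface, which RNA levels do not measure.

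Total counts lay between 21126874 and 29605988 per library. Mir214 itself had 0 counts in all 12 libraries, which allows up to 3 counts in each, so genotype could not be checked at the deleted gene. All 10 T cell markers were detected in every library. Their summed level in CPM (read counts scaled to the library total with TMM factors) was 4041 to 4812 in WT sham and 2782 to 3310 in WT Ang II, without overlap, and 8 of the 10 fell (median log2 fold change -0.50). Sums in miR-214-/- were 3769 to 4371 in sham and 3190 to 4239 in Ang II. Markers of other cells were present in every library too, and none was at 0. The 10 genes of neutrophils and their precursors summed to 200 to 265 CPM in WT sham and 1138 to 3347 CPM in WT Ang II, and all 10 rose. The same genes summed to 251 to 989.8 CPM in miR-214-/- sham and 610.3 to 3071 CPM in miR-214-/- Ang II. Macrophage and monocyte markers summed to 397 to 711 CPM and 692 to 2644 CPM in the WT groups, and 1 of the 10 rose. They summed to 550.3 to 955 CPM in miR-214-/- sham and 863 to 1531 CPM in miR-214-/- Ang II. In WT, 5 of 10 red-cell precursor markers, 3 of 8 megakaryocyte markers and 2 of 8 dendritic cell markers rose, 1 of 6 NK cell markers fell, and 0 of 8 B cell markers changed by edgeR (0 at an unadjusted p under 0.05, 0 by DESeq2). The libraries WT Ang II 1 and miR-214-/- Ang II 2 (named by group and replicate number) had the highest macrophage, neutrophil and red-cell sums of their groups, and results that rest on them are given without them as well. In bulk RNA of this kind, fewer cells of a type and less RNA per cell cannot be told apart.

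Measured per length of exon, the levels of the 9 genes covered a wide range, and not all neighbours kept their order in every library. The order depends on the exon lengths used, which were 13978 bases for Itga4 and 2770 for Itgb7. Before division by length these genes had means of 794 and 796 CPM. Itgb7 had the highest level, with 287 CPM per kb as the mean of 12 libraries (range 226 to 356). Itgb2 followed with 181 CPM per kb and Itgal with 119 CPM per kb. Itgb1 had 100.2 CPM per kb, and it lay below Itgal in 9 of 12 libraries, so these neighbours were not separated in every mouse. Itga4 had 56.8 CPM per kb and Itga6 20.1 CPM per kb, and each of them lay below the gene before it in 12 of 12 libraries. Itgav had 4.91 CPM per kb and Itgax 4.52 CPM per kb, and Itgav was the higher of the pair in 8 of 12 libraries. Itgam came last, with 2.90 CPM per kb over its whole exon length.

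The place of Itgam in that order depends on how overlapping genes were counted. Of its 5024 exon bases, 3450 (68.7%) also belong to the gene model Gm49368 on the same strand, which had only 1 to 18 counts in a library. If reads that fit both genes were dropped, as the counting tool does by default, the counts of Itgam come from 1574 bases, and its mean becomes 9.24 CPM per kb (range 3.44 to 22.1). On that basis Itgam lay above Itgax in 10 of 12 libraries and above Itgav in 9 of 12. Fold changes of Itgam compare the same bases in all libraries. Itgax shared 8.02% of its 50-base stretches with other transcripts, chiefly those of its neighbour Itgad. Itgal, Itgb1 and Itgb7 shared 0%.

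**Figure D1:**
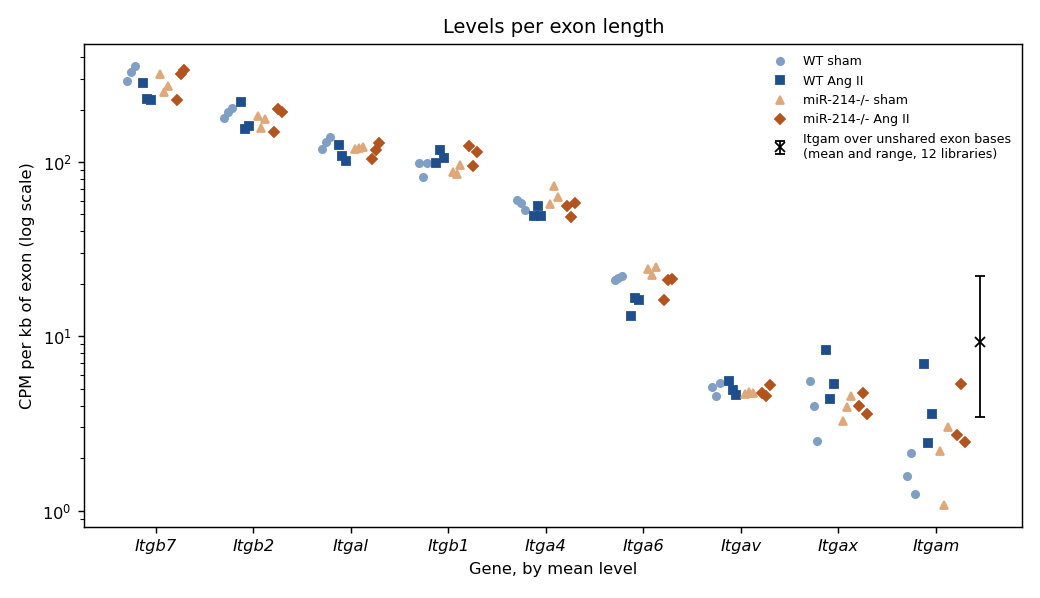
Levels of the 9 integrin genes in CPM per kb of exon (y axis, log scale), ordered by mean level along the x axis, with 1 point per library and a symbol per group. Itgb7 (mean 287) lies highest, and the black cross and bar give Itgam over its unshared exon bases (mean 9.24, range 3.44 to 22.1).

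Itgam and Itgax lie next to each other on chromosome 7 of GRCm38, at 128062640-128118491 and 128129547-128150657 on the plus strand, and Itgad follows at 128154376-128223816. Itgal lies on the same chromosome at 127296260-127335138. The 250 bases before the RefSeq start sites of Itgam (chr7:128062390-128062639) and Itgax (chr7:128129300-128129549) are shown because both genes are typical of myeloid cells and were the most variable of the 9. Capitals mark the letters GAGGAA or, on the other strand, TTCCTC, the core to which the myeloid factor PU.1 and related ETS proteins bind.
Itgam: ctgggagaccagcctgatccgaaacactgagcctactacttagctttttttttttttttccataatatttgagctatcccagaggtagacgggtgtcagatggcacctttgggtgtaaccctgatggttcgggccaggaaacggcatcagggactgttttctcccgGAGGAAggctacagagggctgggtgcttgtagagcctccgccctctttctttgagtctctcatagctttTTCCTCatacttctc
Itgax: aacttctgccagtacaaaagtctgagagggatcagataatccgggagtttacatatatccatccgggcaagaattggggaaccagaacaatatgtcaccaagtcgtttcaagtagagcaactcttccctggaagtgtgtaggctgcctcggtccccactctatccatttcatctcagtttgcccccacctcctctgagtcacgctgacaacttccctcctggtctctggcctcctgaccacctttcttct
The Itgam stretch held these letters 2 times and the Itgax stretch 0 times. Of 32851 RefSeq promoters of this length (GRCm38.p6), 23.3% held them at least once. Among the 6 members with a RefSeq promoter at hand, Itgav held them 2 times, Itgb1 1 time, and Itga4 and Itgb7 0 times. Itgal, Itgb2 and Itga6 had no entry.

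The question of the first comparison was which integrin genes Ang II shifted in T cells of WT mice. Of the 9 genes, 1 fell (Itga6) and 0 rose by edgeR, where a gene passed with a Benjamini-Hochberg adjusted p below 0.05. Of the 16012 genes in the test 18.8% passed, with 7.06% lower and 11.7% higher in Ang II, so 1 in 9 members was near the share of all genes. Unadjusted p-values under 0.05 were found for 3 of the 9 (Itgam, Itga6 and Itgb7), beside 5705 of all 16012 tested genes. DESeq2 called these 3, against 22.9% of the 16343 genes to which it gave an adjusted p. The same 3 genes had groups without overlap, Itgam higher and Itga6 and Itgb7 lower, while 40.6% of all tested genes had WT groups without overlap. The median log2 fold change was -0.10 over the 9 genes and -0.02 over all tested genes.

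**Figure D2:**
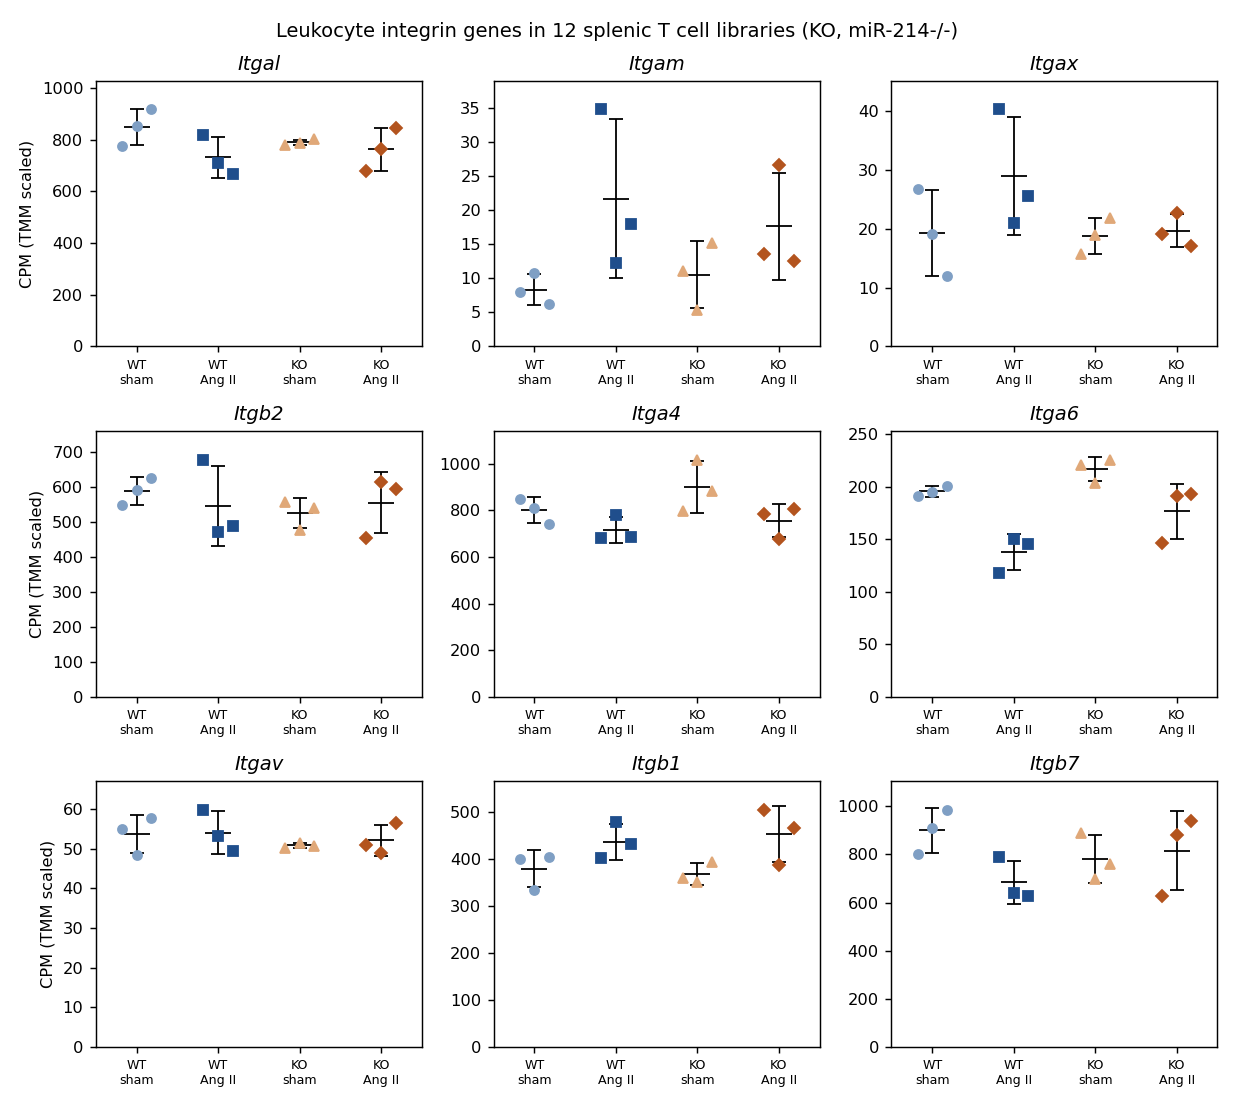
Level of each of the 9 integrin genes (y axis, CPM from 0) in the 4 groups (x axis, KO standing for miR-214-/-), with 1 point per library and bars for mean ± SD of 3 mice. In Itga6 the 3 WT Ang II points (118 to 150.2) lie below the 3 WT sham points (191 to 201), and in Itgam the WT Ang II points (12.3 to 34.8) lie above the sham points (6.27 to 10.8).

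Itga6, the α chain of the laminin receptor, was measured at 191, 195 and 201 CPM in WT sham and at 118, 150.2 and 145 CPM in WT Ang II. In miR-214-/- it was measured at 221, 204 and 226 CPM in sham and at 146, 191 and 193 CPM in Ang II. Every Ang II library thus lay below every sham library of its genotype. The fall in WT was 0.50 on the log2 scale (SE 0.09, 95% confidence interval -0.71 to -0.28, edgeR adjusted p = 0.0146), or a level 29.1% lower. In miR-214-/- the log2 fold change was -0.29 (SE 0.12, edgeR adjusted p = 0.392), which did not pass, and the difference between the genotypes in this effect was 0.22 (95% confidence interval -0.13 to 0.57, adjusted p = 0.525). The call in WT was close to its limit. Without WT sham 1, WT sham 3 or WT Ang II 3 the edgeR adjusted p was 0.051, 0.0523 and 0.0505, and the log2 fold change lay between -0.56 and -0.40 whichever library was left out. Without WT Ang II 1, the library with the lowest Itga6, it was -0.40 (adjusted p = 0.00784).

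The fall of Itga6 was as large as that of the T cell markers, whose median log2 fold change in WT was -0.50. Per 1000 CPM of summed T cell markers, Itga6 had 47.2, 43.7 and 41.7 CPM in WT sham and 35.6, 47.3 and 52.2 CPM in WT Ang II. These ranges overlap, and the log2 difference of this ratio was 0.01 (SD 0.21, n = 3 per group). For miR-214-/- the ratio was 50.6, 52.7 and 59.9 CPM in sham and 45.9, 44.98 and 47.99 CPM in Ang II, which did not overlap (log2 difference -0.23). The 4 libraries with the lowest T cell marker sums, all 3 of WT Ang II and miR-214-/- Ang II 1, were the 4 with the lowest Itga6. The libraries therefore form separate clusters on this plot, and no pooled correlation is given. Deviations of Itga6 and the T cell marker sum from their group means had an r of 0.42, against 0.90 for Itgb7 and 0.75 for Itgal. What part the T cell marker level had in the fall of Itga6 was not tested.

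Itgam, the α chain of Mac-1 (CD11b), was measured at 7.99, 10.8 and 6.27 CPM in WT sham and at 34.8, 12.3 and 17.99 CPM in WT Ang II. The miR-214-/- libraries had 11.1, 5.42 and 15.2 CPM in sham and 13.6, 26.7 and 12.5 CPM in Ang II. The WT groups did not overlap, and the miR-214-/- groups did. WT Ang II 1 and miR-214-/- Ang II 2 were the highest of the 12 libraries. The log2 fold change in WT was 1.39 (SE 0.40, 95% confidence interval 0.44 to 2.35), a ratio of 2.63, and its edgeR adjusted p of 0.0535 missed the threshold. DESeq2 called it (adjusted p = 0.000353), as did edgeR without WT Ang II 2 (adjusted p = 0.028). Without WT Ang II 1 the log2 fold change was 0.86 (edgeR adjusted p = 0.0613), a value more than 1.5 times smaller. The log2 fold change in miR-214-/- was 0.74 (SE 0.43, adjusted p = 0.517), and 0.31 without miR-214-/- Ang II 2.

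Itgam moved with the markers of myeloid cells, lists that hold no integrin. Like all marker lists here, they were chosen with earlier results of these data known, which the permutation p-values do not take into account. Over the 12 libraries its log2 CPM had a Pearson r of 0.94 (permutation p = 1e-05, the smallest that 100000 permutations can give) and a Spearman rho of 0.94 (permutation p = 1e-05) with the log2 sum of the macrophage and monocyte markers. For neutrophils and their precursors r was 0.93 (permutation p = 1e-05) and rho 0.93 (permutation p = 8e-05). Adjusted over the 72 relations between 9 genes and 8 lists, these p-values stayed at or below 0.00288. Without the 2 libraries farthest from the median sum, r was 0.91 for macrophages and 0.90 for neutrophils. Deviations from the group means over all 12 libraries gave an r of 0.90 for macrophages and 0.94 for neutrophils. These values were not computed for single groups or without WT Ang II 1 and miR-214-/- Ang II 2, the libraries with the highest Itgam. Libraries in one relation share the total to which CPM are scaled. The permutations shuffled all 12 libraries regardless of group, so group differences enter these p-values. The part of these cells in the level of Itgam was not tested.

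**Figure D3:**
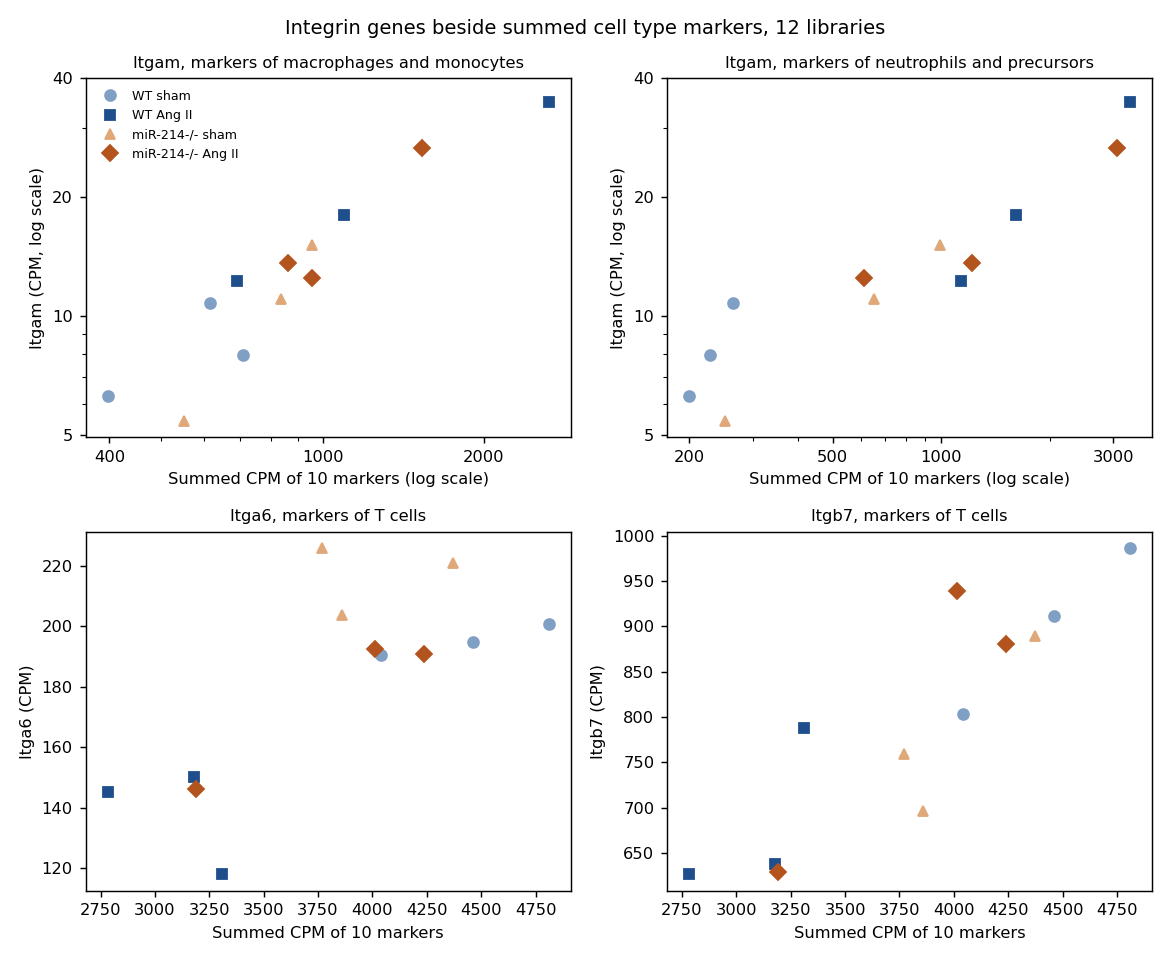
Itgam (CPM, log scale) against the summed CPM of 10 macrophage and monocyte markers and of 10 neutrophil markers (log scales), and Itga6 and Itgb7 (CPM) against the summed CPM of 10 T cell markers, with 1 point per library and a symbol per group. Itgam follows both myeloid sums (r = 0.94 and 0.93), Itgb7 follows the T cell sum (r = 0.89), and in Itga6 the 4 libraries with the lowest T cell sums lie apart from the rest.

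Itgb7, the β chain of the gut-homing α4β7 receptor, was measured at 803, 912 and 986 CPM in WT sham and at 788, 638 and 626 CPM in WT Ang II. In miR-214-/- it was measured at 890.0, 696 and 759 CPM in sham and at 629, 881 and 939 CPM in Ang II. The WT groups lay apart by a small margin and the miR-214-/- groups overlapped widely. Its log2 fold change in WT was -0.38 (SE 0.12, 95% confidence interval -0.68 to -0.09, edgeR adjusted p = 0.0727), and DESeq2 gave an adjusted p of 0.0271. Without WT Ang II 1 the value was -0.51 (edgeR adjusted p = 0.0217). In miR-214-/- it was 0.06 (95% confidence interval -0.36 to 0.49, adjusted p = 0.907). Of the 9 genes Itgb7 had the smallest adjusted p for the difference between genotypes, 0.47 on the log2 scale (95% confidence interval -0.04 to 0.98, adjusted p = 0.37), which did not pass.

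Of the 9 genes, Itgb7 had the highest r with the T cell markers across libraries, and Itgal the next. The Pearson r of Itgb7 with the log2 sum of those markers was 0.89 (permutation p = 0.00016) and its Spearman rho 0.90 (permutation p = 0.00018). Adjusted values were 0.00384 and 0.00432 over the 72 relations, and group differences enter these p-values. Without the 2 farthest libraries r was 0.82, and deviations from the group means gave 0.90. Relative to the T cell marker sum, the log2 difference between Ang II and sham in WT was 0.12 (SD 0.09), with groups that overlapped. Whether the marker level accounts for the lower values was not tested.

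Itgb2, the common β2 chain, was measured at 547, 591 and 627 CPM in WT sham and at 678, 470.4 and 489 CPM in WT Ang II. Values of miR-214-/- mice were 557, 477 and 541 CPM in sham and 455, 615 and 594 CPM in Ang II. Both pairs of groups overlapped, and the libraries with Ang II spread more widely than those of sham mice. Log2 fold changes were -0.10 (95% confidence interval -0.46 to 0.27) in WT and 0.08 (-0.25 to 0.41) in miR-214-/-. The WT groups overlapped only through WT Ang II 1 (678 CPM). Leaving out single libraries gave WT values from -0.29 to -0.00266, with 0.0622 as the smallest edgeR adjusted p. The Pearson r of Itgb2 with the log2 sum of T cell markers was 0.55 (permutation p = 0.066), and deviations from the group means gave 0.76.

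Itgal, the α chain of LFA-1, was measured at 777, 854 and 917 CPM in WT sham and at 819, 711 and 666 CPM in WT Ang II. Those of miR-214-/- mice were 779, 789 and 801 CPM in sham and 679.5, 765 and 844 CPM in Ang II. The groups overlapped in both genotypes. Log2 fold changes were -0.20 (95% confidence interval -0.46 to 0.05, edgeR adjusted p = 0.22) in WT and -0.05 (-0.32 to 0.22) in miR-214-/-. In WT the overlap came only from WT Ang II 1 (819 CPM). Leaving out single libraries gave WT values from -0.30 to -0.14, with 0.0849 as the smallest edgeR adjusted p. The Pearson r of Itgal with the log2 sum of T cell markers was 0.81 (permutation p = 0.0014) and its Spearman rho 0.66 (permutation p = 0.022). Adjusted values were 0.0207 and 0.133 over the 72 relations, and deviations from the group means gave an r of 0.75. What part the marker level had was not tested.

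Itgax (CD11c), which marks dendritic cells and some macrophages, was measured at 26.7, 19.2 and 12 CPM in WT sham and at 40.3, 21.1 and 25.6 CPM in WT Ang II. The deletion groups had values of 15.7, 18.9 and 21.9 CPM in sham and 19.2, 22.7 and 17.1 CPM in Ang II. WT Ang II 1 stood above all other libraries, and all groups overlapped. The log2 fold change in WT was 0.60 (SE 0.35, edgeR adjusted p = 0.257), and 0.27 without that library. Its Pearson r with the log2 sum of dendritic cell markers was 0.84 (permutation p = 0.00067) and its Spearman rho 0.69 (permutation p = 0.015), with adjusted values of 0.0121 and 0.133. Without the 2 farthest libraries r was 0.61, and deviations from the group means gave 0.91. With macrophage markers r was 0.78 (permutation p = 0.004) and rho 0.59 (permutation p = 0.049), with adjusted values of 0.0416 and 0.171. That r fell to 0.24 without the 2 farthest libraries, so the pooled relation rested on them. Deviations from the group means over all 12 libraries gave 0.80.

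Itga4, the α chain of VLA-4 and of α4β7, was measured at 851, 810.2 and 741 CPM in WT sham and at 681, 780.5 and 688 CPM in WT Ang II. Without miR-214 the values were 799, 1019 and 884 CPM in sham and 786, 677 and 808 CPM in Ang II. The means were lower with Ang II in both genotypes, but the groups overlapped. Log2 fold changes were -0.15 (95% confidence interval -0.36 to 0.06) in WT and -0.25 (-0.57 to 0.08) in miR-214-/-. The gene Cerkl on the opposite strand covers 1124 of the exon bases of Itga4, and it had 58 to 104 counts in a library.

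Itgb1, the partner of α4 and α6 in T cells, was measured at 400.4, 333 and 403 CPM in WT sham and at 401, 477 and 432 CPM in WT Ang II. Mice without miR-214 had 359.8, 349.9 and 394 CPM in sham and 504, 388 and 466 CPM in Ang II. Means were higher with Ang II in both genotypes, and each pair of groups overlapped by a narrow margin. Log2 fold changes were 0.21 (95% confidence interval -0.03 to 0.45, edgeR adjusted p = 0.18) in WT and 0.30 (0.01 to 0.60, adjusted p = 0.4) in miR-214-/-. Itga6 and its partner Itgb1 therefore had estimates of opposite sign in both genotypes.

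Itgav, the αV chain, was the most even of the 9. It was measured at 55.0, 48.5 and 57.9 CPM in WT sham and at 59.9, 53.2 and 49.4 CPM in WT Ang II. The miR-214-/- groups had 50.3, 51.6 and 50.9 CPM in sham and 51.1, 48.9 and 56.6 CPM in Ang II. Its highest library was 1.23 times its lowest, against 6.42 times for Itgam. The 95% confidence intervals of its log2 fold change were -0.23 to 0.27 in WT and -0.14 to 0.22 in miR-214-/-.

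Scaling to the T cell markers moved the estimates of the other members up in WT. Relative to that sum, 6 of the 9 genes (Itgal, Itgam, Itgax, Itgb2, Itgav and Itgb1) had all 3 Ang II libraries above all 3 sham libraries. Of all tested genes 59.6% did so, since the sum itself was lower in Ang II, so the share of members was near that of all genes. The log2 difference turned positive for Itgal (0.31), Itgb2 (0.40) and Itga4 (0.36), was 0.53 for Itgav and grew to 0.73 for Itgb1. No test was made on these ratios, which were added after the data were seen.

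In miR-214-/- mice the question was whether Ang II shifted the same genes. By edgeR 0 of the 9 genes passed, 2 had an unadjusted p under 0.05 (Itga6 and Itgb1), and DESeq2 called 0. Over all 15937 genes, 0% passed in edgeR, with 1939 at an unadjusted p under 0.05 and 277 called by DESeq2. Groups without overlap were found for 1 of the 9 genes (Itga6, lower) and for 19.4% of all genes. The test of the difference itself, the interaction of Ang II and genotype over all 12 libraries, passed for 0 of the 9 genes in edgeR, with 0 at an unadjusted p under 0.05 and 0 in DESeq2. It passed for 0.00596% of 16770 genes (1 gene), 2483 had an unadjusted p under 0.05, and DESeq2 called 444. The intervals were wide for the myeloid chains, from -2.04 to 0.77 for Itgam (estimate -0.64, and -0.11 without WT Ang II 1) and from -1.42 to 0.39 for Itgax (-0.52, and -0.20 without that library). They were narrowest for Itgav, from -0.26 to 0.33. A fall of Itga6 that passed in WT and missed in miR-214-/- was therefore not shown to differ between the genotypes.

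**Figure D4:**
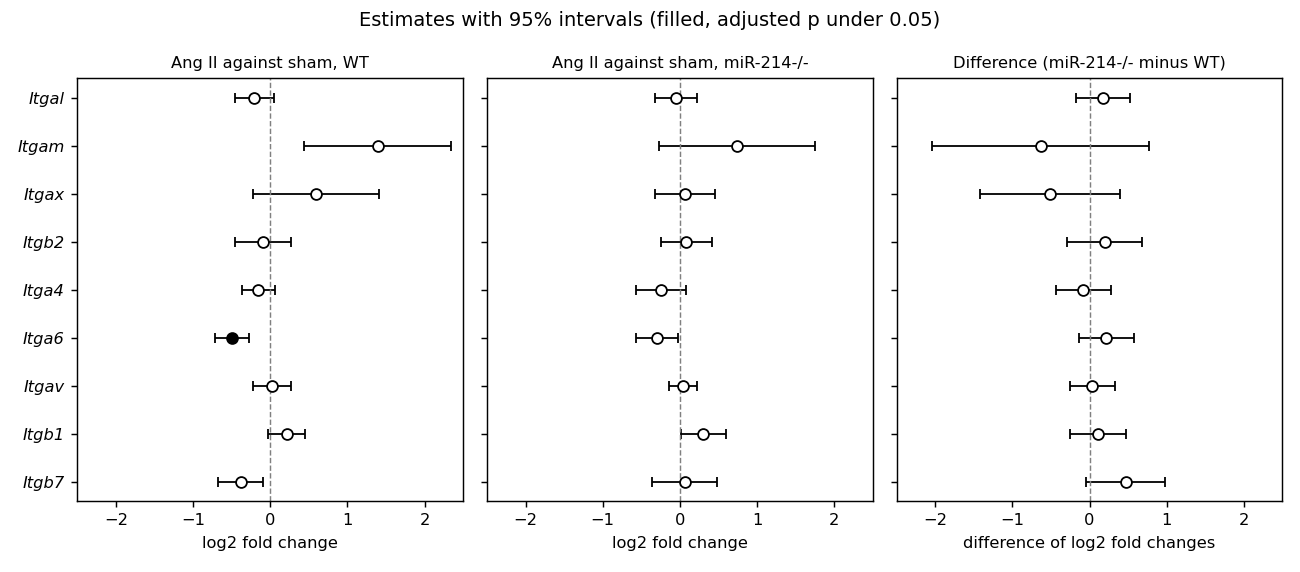
Log2 fold change with Ang II over sham for each gene, by genotype, and the difference of these effects (x axes, log2 scale), with 95% confidence intervals from edgeR and filled points for an adjusted p under 0.05. Itga6 in WT (-0.50) is the only filled point, and the intervals of Itgam are the widest in each panel.

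Deletion of miR-214 was also compared with WT within each treatment. In sham mice 0 of the 9 genes passed in edgeR (0 at an unadjusted p under 0.05, 0 in DESeq2). Of all 15913 genes 0.0251% passed, and 1061 had an unadjusted p under 0.05. Itga6 was higher in all 3 miR-214-/- sham libraries than in all 3 WT sham libraries, by 0.14 on the log2 scale (95% confidence interval -0.01 to 0.28, edgeR adjusted p = 0.768), and it was the single one of the 9 genes without overlap, beside 10.2% of all genes. Estimates for the other 8 genes lay between -0.21 (Itgb7) and 0.33 (Itgam). Relative to the T cell marker sum, the log2 difference of Itga6 between the sham groups was 0.30, without overlap. The sum itself had a median of 4462 CPM in WT sham and 3860 CPM in miR-214-/- sham, which raises ratios in general. For the sham groups the share of all genes on this scale was not computed. In Ang II-treated mice 0 of the 9 passed in edgeR (1 at an unadjusted p under 0.05, Itga6, and 0 in DESeq2), against 0% of 16215 genes, of which 1388 had an unadjusted p under 0.05. Itga6 had a log2 difference of 0.36 there (95% confidence interval 0.04 to 0.69, adjusted p = 0.569). All 10 T cell markers had positive estimates there as well (median log2 difference 0.31). Relative to their sum the difference of Itga6 was 0.06, with groups that overlapped. What part the marker level had was not tested. Itgax had the lowest estimate, -0.56 (95% confidence interval -1.18 to 0.06, adjusted p = 0.569), and -0.23 without WT Ang II 1. None of the 9 genes had Ang II groups of the 2 genotypes without overlap in CPM, while 13.9% of all genes did. Relative to the T cell marker sum, Itgal (-0.24), Itgax (-0.81) and Itgav (-0.35) were lower in miR-214-/- without overlap. That sum itself had a median of 3178 CPM in WT Ang II and 4013 CPM in miR-214-/- Ang II, which lowers ratios in general. In this comparison the share of all genes on that scale was not computed.

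The members also differed in which of them rose and fell together across the 12 libraries, given here as a description. Itgal and Itgb7 had a Pearson r of 0.86, Itgb2 and Itgb7 0.82, and Itgal and its partner Itgb2 0.75. Itgam and Itgax, the myeloid partners of β2, had r = 0.68 with each other but only 0.34 and 0.12 with Itgb2. Itga4 and Itgb7, the chains of one receptor, had r = -0.10, and Itgam and Itga4 had -0.72. All points share the total to which CPM are scaled, and group differences enter each r.

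Among 12288 genes with a mean log2 CPM above 1, those with the pattern most like Itgam over the 12 libraries included Lilra6 (Pearson r = 0.98) and Nfam1 (0.97). Itgb7 was most like Selplg (0.98), which codes for the selectin ligand PSGL-1, Bin2 (0.97) and Ppp2r5a (0.97). For Itga6 they were Usp28, E030030I06Rik and Esyt2 (0.96 each). Itgb2 was closest to Parvg (0.95), an adaptor of integrin tails in blood cells, Ptpn6 (0.94) and Card19 (0.94). Itgal was closest to Sipa1 (0.94), which switches off the integrin activator Rap1, Wnk1 (0.94) and Cbl (0.93). Itgax was closest to Il18 (0.96), Cadm1 (0.96), an adhesion protein of a dendritic cell subset, and Grk3 (0.94). For Itga4 they were Rabgap1l, Trim39 and Zfp862-ps (0.92 each), for Itgb1 Gas2 (0.90), Cenpc1 (0.89) and Rcor2 (0.88). Itgav, whose own variation was small, had the lowest values, with Plekhb2 (0.84), Ahnak (0.82) and Tbc1d22a (0.76).

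Other chains pair with the members or resemble them. Itgae, which pairs with β7 in tissue-resident T cells, was measured at 90.4, 78.4 and 79.5 CPM in WT sham and 82.6, 81.6 and 50.5 CPM in WT Ang II. Itgad, a β2 partner of splenic macrophages, was measured at 30.3, 29.3 and 14.3 CPM in WT sham and 87.6, 9.66 and 25.4 CPM in WT Ang II, where 1 library again stood far above the others. Itgb3, a partner of αV, lay between 71.3 and 99.8 CPM in all 12 libraries. In miR-214-/- mice Itgae was at 76.1, 78.5 and 69.1 CPM in sham and 55.4, 60.8 and 68.9 CPM in Ang II, which did not overlap, but its adjusted p was 0.357. These 3 genes passed in none of the 5 comparisons by edgeR or DESeq2, and Itgae in miR-214-/- was the single result with an unadjusted p under 0.05. Itgb2l, a β2-like gene of neutrophils, was measured at 1.17, 0.477 and 0.180 CPM in WT sham and 8.15, 1.90 and 6.24 CPM in WT Ang II, a rise of 3.16 on the log2 scale (SE 0.74, edgeR adjusted p = 0.0295). In miR-214-/- it was measured at 0.746, 0.0927 and 2.12 CPM in sham and 6.44, 5.02 and 0.827 CPM in Ang II, groups that overlapped.

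Of the 18 other integrin subunits, 16 could be tested in WT, and in edgeR 4 rose and 0 fell, beside 11.7% of all tested genes called higher and 7.06% called lower (median log2 fold change 0.47, against -0.02 over all genes). At an unadjusted p under 0.05 there were 6, beside 5705 of all 16012 tested genes, and DESeq2 called 5 higher and 1 lower. The additional DESeq2 calls, named here after their values were seen, were Itga1 (edgeR log2 fold change 1.38, DESeq2 adjusted p = 0.000871) and Itga7 (edgeR log2 fold change -0.84, DESeq2 adjusted p = 0.00783). Beside Itgb2l, the edgeR calls were Itga5 (1.55, SE 0.28, adjusted p = 0.0131), the fibronectin receptor chain, Itga2b (0.99, SE 0.22, adjusted p = 0.0243), the platelet chain, and Itga8 (1.63, SE 0.42, adjusted p = 0.039), which averaged only 0.354 CPM in WT sham. Itga5 rose from a mean of 9.31 ± 2.96 CPM to 27.1 ± 7.01 CPM (SD, n = 3). Itga5 in miR-214-/- was 13.7 ± 2.97 CPM in sham and 15.9 ± 8.45 CPM in Ang II. Itga5 and Itga2b missed the threshold without WT sham 1, WT sham 3 or WT Ang II 3 (adjusted p 0.052 to 0.0869), and Itgb2l without WT sham 2, WT sham 3 or WT Ang II 3 (0.0812 to 0.0925). Without WT sham 1, the log2 fold change of Itgb2l was 4.02. Itga8 kept its call only when WT sham 1 was the library left out, and leaving out any of the other 5 gave 0.0736 to 0.114. The 4 genes that rose include chains known from platelets and neutrophils, whose markers rose in the same libraries, and the part of those cells was not tested.

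**Figure D5:**
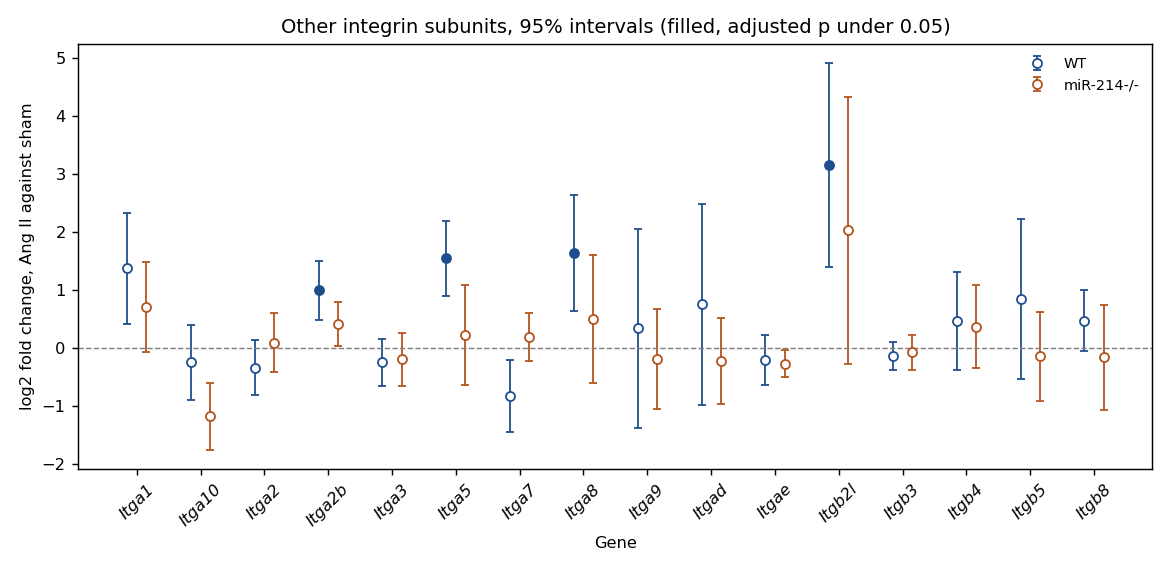
Log2 fold change for Ang II against sham (y axis) of the 16 other integrin subunits that could be tested in both genotypes (x axis), with 95% confidence intervals from edgeR and filled points for an adjusted p under 0.05. Itga2b, Itga5, Itga8 and Itgb2l are filled in WT, and no point is filled in miR-214-/-.

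Integrins are opened from inside the cell by activators and adaptors. Of 26 such genes listed, 25 were tested in WT, and in edgeR 7 fell and 2 rose, beside 7.06% of all tested genes called lower and 11.7% called higher (median log2 fold change -0.13, against -0.02 over all genes). DESeq2 called 7 lower and 3 higher. Rasgrp1 and Rasgrp2, which load Ras and Rap1 with GTP, fell by 0.64 (adjusted p = 0.00493) and 0.49 (adjusted p = 0.00546) on the log2 scale. Cyth1, which binds the β2 tail, fell by 0.49 (adjusted p = 0.00657), and Skap1, an adaptor between the T cell receptor and Rap1, fell by 0.52 (adjusted p = 0.00944). Skap1 missed the threshold without WT Ang II 3 (adjusted p = 0.0504), and the other 3 passed whichever library was left out. These falls had the size of that of the T cell markers, whose part was not tested. Vcl, the actin linker vinculin, rose by 1.57 (SE 0.19, adjusted p = 0.00434), from 17.2 ± 3.98 to 50.8 ± 6.39 CPM (SD, n = 3). What part other cell types had in this rise was not tested.

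Among 15 listed integrin ligands, 10 were tested in WT, and in edgeR 4 rose and 1 fell, beside the same 11.7% and 7.06% of all tested genes (median log2 fold change 0.61, against -0.02 over all genes). DESeq2 called 5 higher and 1 lower. Icam2, a ligand of LFA-1 that lymphocytes and platelets carry themselves, fell by 0.55 on the log2 scale (SE 0.08, adjusted p = 0.00664). That fall was close in size to that of the T cell markers (median log2 fold change -0.50), whose part was not tested. The 4 that rose were matrix genes. In WT, 10 of 10 neutrophil, 1 of 10 macrophage and 3 of 8 megakaryocyte markers rose too, and the part of those cells was not tested. Fn1 (fibronectin) rose by 2.38 (adjusted p = 0.0183), Thbs1 (thrombospondin 1) by 2.24 (adjusted p = 0.0177), Spp1 (osteopontin) by 1.81 (adjusted p = 0.00675) and Lama5 (a laminin chain) by 1.31 (adjusted p = 0.0373). Spp1 and Lama5 were at 0.486 and 1.02 CPM in WT sham, so these changes are among low counts. Fn1 missed the threshold without any one of the WT sham libraries (adjusted p 0.0615 to 0.0759), Thbs1 without WT sham 1 (0.0705), and Lama5 without WT sham 1, WT sham 3, WT Ang II 2 or WT Ang II 3 (0.071 to 0.128). Without WT Ang II 1, its highest library, Fn1 rose by 1.60 on the log2 scale (adjusted p = 0.000917). In the other 4 comparisons, 0 genes of the 3 lists passed in edgeR. At an unadjusted p under 0.05 the lists of other subunits, activators and ligands had 3, 2 and 0 genes in miR-214-/-, 0, 1 and 2 in sham, 1, 3 and 2 in Ang II, and 3, 7 and 5 for the interaction. DESeq2 called 1 other subunit in miR-214-/- and 1 activator and 1 ligand for the interaction.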

How the data were processed

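RNASeq libraries of splenic T cells from 12 mice were used, 3 in each of 4 groups. The authors trimmed paired reads with Trimmomatic, mapped them to GRCm38 with STAR and counted unique exonic reads per gene with featureCounts (Subread 1.5.2), and they deposited raw counts without normalization. Strand setting and annotation release are not given in the sources used here, so overlapping genes are uncertain. Of 49315 identifiers, 49056 were matched to GENCODE vM21, and the 259 not matched held 0.0245% of the counts. Total counts were 21126874 to 29605988 per library. A count of 0 allows up to 3 counts, for counting error only. Of 12 replicate pairs 0 were identical. P-values of edgeR and DESeq2 set group differences against the spread between mice.

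The main test was the quasi-likelihood test of edgeR 4.0.16 in R 4.3.3, with default options, TMM factors and the filterByExpr filter on the compared groups. P-values were adjusted by Benjamini-Hochberg over every tested gene, and values below 0.05 counted as calls. Intervals of 95% came from the same fit. Alternatives were DESeq2 1.42.0, which the authors used, the fit option for adjusted deviance, RLE and library size scaling, no filter, 10 counts in every library, an added log2 fold change threshold of 1, the replicate block, 1 fit over all groups, leaving out each library, and, added after the data were seen, scaling to T cell markers. CPM per kb used the union of annotated exons. Scripts were tested on simulated data. Permutation tests of correlations were two-sided and shuffled all 12 libraries regardless of group, so group differences enter their p-values. Figures were drawn with Python 3.11.15 and matplotlib 3.10.9.

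The members, gene lists and lists of cell type markers (T cells, macrophages, neutrophils, dendritic cells, B cells, NK cells, red-cell precursors and megakaryocytes) were chosen with earlier results of these data known. All 9 members and 4 partners were named, with the 3 genes most correlated to each member (log2 CPM, prior count 2), and from each list at most 5 genes with the smallest adjusted p under 0.05. Of these, 1 gene that this rule names is not reported here.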

Additional observations from a re-analysis of the deposited data

How the results depend on the processing

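The number of members called in WT was 1 and depended on the processing. DESeq2 called 3, a fit to unfiltered genes 2, a minimum of 10 counts in each library 2, and an added log2 fold change threshold of 1 left 0. Without single libraries it was 0 to 2. It stayed at 1 with the replicate block, and the numbers do not pair the mice (correlations of same-numbered deviations from -0.68 to 0.34). It was also 1 with the other scalings, the other fit option and 1 fit over all groups. In the other 4 comparisons it was 0 under every alternative that was run.

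Relative to T cell markers, a scaling added after seeing the data, the called Itga6 in WT went from -0.50 to 0.011, and Itgal (0.31), Itgb2 (0.40), Itga4 (0.36) and Itgb7 (0.12), each below 0 in edgeR, were above 0. Other estimates that changed sign were not called. One fit over all groups gave -0.00344 for Itgav in WT, the replicate block 0.00993 for Itgax between sham groups, and library size scaling -0.0233 for Itgb2 between Ang II groups and -0.0304 for the interaction of Itgav. Without single libraries, log2 fold changes spanned 0 for Itgav in WT (-0.0696 to 0.0782), and in miR-214-/- for Itgal (-0.13 to 0.0231), Itgax (-0.0558 to 0.18), Itgb2 (-0.000402 to 0.20), Itgav (-0.0316 to 0.080) and Itgb7 (-0.0557 to 0.22). Between sham groups they did so for Itgam (-0.020 to 0.65) and Itgax (-0.30 to 0.27). Between Ang II groups they did so for Itgal (-0.0137 to 0.17), Itgam (-0.73 to 0.24), Itgb2 (-0.0825 to 0.23), Itgav (-0.11 to 0.0463) and Itgb1 (-0.0301 to 0.16), and for the interaction for Itga4 (-0.16 to 0.0193) and Itgav (-0.0314 to 0.12). The cause was not tested. With 3 mice a group, log2 differences as wide as the printed intervals could not be resolved.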
